A study of Bos taurus with 18 samples.

Results

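Half-methylated CpGs of EBTr cells, a fibroblast line from bovine embryonic trachea, were defined by their mean M-value over the 18 RRBS libraries of the experiment. An M-value compares methylated with unmethylated reads at 1 cytosine of a CpG as a log2 ratio, so that 0 stands for equal numbers of both. A CpG was a member when its mean lay from -1 to 1, limits that correspond to levels of 33.3% and 66.7% methylation. Of the 31500 tested CpGs, 8716 (27.7%) met this definition. The members were thus selected on their mean level, and that level is given here as a description and without a test. Differences between treatments were not used in the selection.

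RRBS (reduced representation bisulfite sequencing) reads bisulfite-converted DNA from CpG-rich restriction fragments. The cells were grown in Low (1 g/L) or High (4.5 g/L) glucose, each with epigenetic modifiers (EM) at the Control level or with ×2.5 or ×5 of it, and each of the 6 treatments had 3 libraries. EM were methionine (0.015 g/L in Control medium), vitamin B12 (4 µg/L), and choline and folate (each 0.001 g/L). The labels give ×2.5 and ×5 for each compound, whereas the methods of the study give methionine at 2 times its Control level in both supplemented media. All treatments shared the same medium with 10% fetal bovine serum, and 1 cell line was used, so that the libraries hold no variation between animals. The 3 libraries of a treatment came from 3 tubes of cells, and no source used here says whether these were grown in separate flasks. The p-values therefore measure the spread between these tubes, which may be technical.

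In vertebrate DNA, methyl groups are added to cytosines of CpGs on both strands, and maintenance methylation copies the mark to the new strand after replication. Within 1 DNA molecule a CpG strand is either methylated or not. An intermediate level in a cell population thus stands for a mixture of molecules, such as cells that differ, 2 alleles that differ as at imprinted genes and on the inactive X chromosome, or repeated copies of a sequence that differ. EM supply methyl groups or cofactors for the folate and methionine cycles, which make the methyl donor S-adenosylmethionine.

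Members lay on all 29 autosomes and on chromosome X, and they formed a shoulder on the lower side of a distribution that peaked at higher levels. Their median mean M-value was 0.15, with 3716 members below 0 and 5000 above 0. Of the other tested CpGs, 15212 had a mean above 1 and up to 3, 5019 had a mean above 3, 2109 lay above -3 and below -1, and 444 lay at -3 or lower. No gap in the distribution marked either limit. Just inside the lower limit was chr15:26602314, a CpG assigned to the cell adhesion gene CADM1, with a mean M-value of -0.998 and a mean level of 33.6%, and just outside was chr1:124938725 with -1.0005 and 33.5%. At the upper limit chr1:5288312, assigned to the glutamate receptor gene GRIK1, had a mean M-value of 0.9998 and a mean level of 66.3%, and chr3:13940317 just outside had 1.0001 and 66.6%. Positions are on bosTau8, and a gene name is the closest start site according to the study's tables, at any distance. A position that those tables do not list took the name shared by the listed positions on either side. Regions, runs and stretches carry the most frequent name among their positions, also where they are said to lie near a gene.

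**Figure D1:**
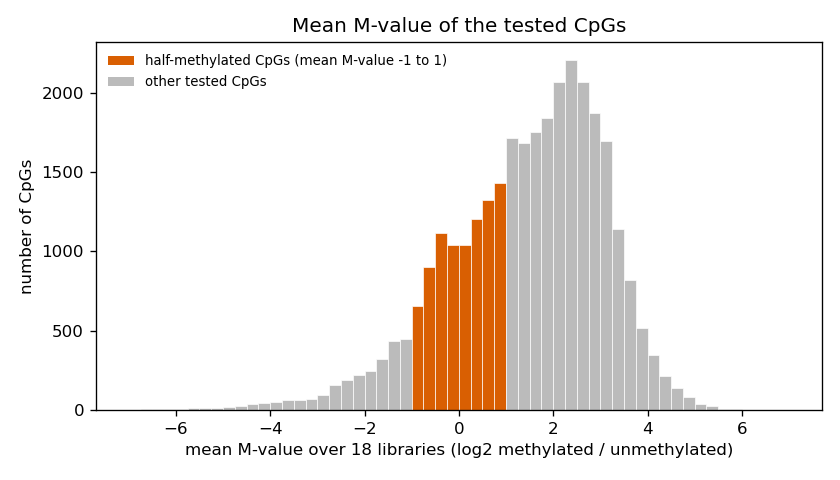
Number of tested CpGs (y axis) by mean M-value over 18 libraries (x axis, log2 ratio of methylated to unmethylated, in steps of 0.25). The 8716 half-methylated CpGs are orange and the other CpGs grey, and the bars run through both limits without a gap.

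The half-methylated state was a property of the mean over libraries that held in most single libraries too. In a library, 84.1% to 89.1% of the members had an M-value within the limits. Of all members, 2962 (34.0%) lay within the limits in all 18 libraries, and 93 did so in fewer than 9. The median member was within them in 17 libraries, and its lowest and highest library differed by 1.39 on the log2 scale. On that scale members varied less between libraries of a treatment than other CpGs did. Their median SD within treatments was 0.36, compared with 0.44 for means above 1 and up to 3, 0.42 for means between -3 and -1, and 0.49 for means above 3. In percent the order was the opposite, because the same log2 step covers more percentage points near the middle. The median SD of members was 6.01 percentage points, compared with 4.65 for means above 1 and up to 3, 4.88 for means between -3 and -1, and 2.55 for means above 3.

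The steadiest member was chr6:17970431, assigned to RPL34, which encodes a protein of the large ribosomal subunit. Its level ran from 57.1% to 58.8% over the 18 libraries, with a median of 58.0% and an SD of 0.03 on the log2 scale. The most variable member was chr3:95025542, assigned to NRDC, the metalloprotease nardilysin. Its level ran from 27.6% in 1 Low ×2.5 library to 88.2% in 1 Low Control library. Its 3 Low Control libraries alone had 68.3%, 88.2% and 35.0%, so that the spread within 1 treatment was nearly as wide as that over the whole series.

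Members lay among groups of tested CpGs, and only part of them lay in solid blocks. Tested CpGs less than 10 kb apart were joined into 612 regions, of which 541 held a member and 46 held 50% of all members. How many regions held 50% of all tested CpGs is not given, so this is not a result about the members alone. The nearest tested CpG lay at a median of 7 bp from members and 4 bp from other tested CpGs. The region with the most was chr29:19399061-19449567 near PAK1, a kinase of the cytoskeleton, with 342 members among 730 tested CpGs (46.8%). Next came chr3:82708009-82911078 near ALG6, a glucosyltransferase of protein N-glycosylation, with 283 of 988 (28.6%), and chr3:8102321-8111849 near CFAP126, a protein of cilia, with 256 of 625 (41.0%). These 3 regions differed in their overall level. The median mean M-value of their tested CpGs was 1.01, 1.72 and -0.94.

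Among the 302 regions with at least 20 tested CpGs, the share of members ran from 0% to 71.4% with a median of 25%. In 14 of them the share was above 50%, and 6 held no member. The largest share was 15 of 21 at chr14:4084498-4084752, assigned to AGO2, an Argonaute protein of small RNA pathways. The next 2 lay close together on chromosome 25, chr25:32361997-32377148 assigned to RN18S1 with 85 of 126 (67.5%) and chr25:32456283-32472736 assigned to RN45S with 95 of 152 (62.5%). Both names stand for ribosomal RNA, whose genes occur in many copies in mammalian genomes. Regions without a member were found at both ends of the scale. The 69 tested CpGs of chr14:277750-278202 (C14H8orf33) had a median mean M-value of 3.52 and the 28 of chr16:13666502-13666657 (RGS18, a regulator of G protein signalling) one of 2.61, whereas the 24 of chr6:92540895-92540976 (MIR2887-2) had -2.47.

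By chromosome, members made up between 17.1% (chromosome 20) and 48.0% (chromosome 13) of tested CpGs. On chromosome X they made up 356 of 1268 (28.1%), compared with 8360 of 30232 (27.7%) on the autosomes. None of 36 imprinted genes in a list fixed for this purpose was among the 365 gene names of the study's tables. Those tables name only CpGs that the study called, and 80.0% of the members could be given 1 of these names, so the level at imprinted genes is not settled by this count.

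Unbroken runs of members less than 100 bp apart were mostly short. Of 4335 runs, 2362 were single members with another kind of CpG or no close CpG on either side, and these held 27.1% of the members. Runs of 2 numbered 1017, and in 455 of them the members were 1 bp apart. Runs of 5 or more numbered 330 and held 2210 members (25.4%). A CpG tested on both strands counts as 2 members in these runs. The longest run was 48 members in 133 bp at chr25:32472604-32472736, assigned to RN45S, where 24 of the gaps between members were 1 bp. Its mean M-values ran from -0.88 to 0.54 and its mean level was 49.3%. The second, with 21 members in 86 bp and 11 gaps of 1 bp, was chr25:32362798-32362883 with a mean level of 50.4%. The third, with 20 members in 78 bp and 10 gaps of 1 bp, was chr3:8104226-8104303 near CFAP126 with 45.3%. The level of the first run stayed between 46.7% and 51.1% in all 18 libraries, with a median of 49.4%. That of the second stayed between 47.5% and 53.7%, and that of the third between 42.2% and 51.2%. In the third run the 3 Low Control libraries (47.2% ± 0.38, SD, n = 3) lay above those of Low ×2.5 (44.7% ± 0.94) and Low ×5 (44.4% ± 0.81). They also lay above those of High Control (43.3% ± 1.02) and, narrowly, High ×2.5 (45.6% ± 1.34). The range of the High ×5 libraries (46.6% ± 3.99) overlapped those of all the other treatments. These are means over neighbouring CpGs and were not tested as runs.

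Next to a half-methylated CpG, another tested CpG was often half-methylated, and how often depended on the distance. Tested positions 1 bp apart can be both strands of 1 CpG or, where 2 CpGs adjoin, 1 cytosine of each, and the 2 cases were not separated. The 3350 members with a neighbour at 1 bp had 3451 such neighbours, so some had one on either side. Of the adjacent positions at this distance from a member, 87.3% were members too, against 27.7% of all tested CpGs. The share was 68.1% at 2 bp, 42.3% at 3 to 5 bp, 47.2% at 6 to 10 bp, 52.7% at 11 to 20 bp, 32.8% at 21 to 50 bp and 53.7% at 51 to 100 bp. It fell to 34.4% between 101 and 1000 bp and to 18.2% beyond 1000 and up to 10000 bp. The decline was thus not steady. Neighbours that were not members lay mostly above the upper limit, with 43.1% of all neighbours at 6 to 10 bp above 1 and 9.68% below -1.

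Positions 1 bp apart shared their mean level but not their variation between libraries. In 1507 of 1944 such pairs with at least 1 member (77.5%) both positions were members, and the median difference within a pair was 0.15 on the log2 scale. In 140 pairs (7.20%) the 2 positions differed by more than 1. Over all pairs 1 bp apart the mean M-values had a Pearson r of 0.94. The M-values of both positions over the 18 libraries, in contrast, had a median r of 0.03 in the 1507 pairs of members. At 2 bp both measures were high. There the mean M-values had an r of 0.74 over all pairs and the deviations over libraries had a median r of 0.63 in 94 pairs of members. With distance this r fell to 0.45 at 3 to 5 bp (212 pairs), 0.32 at 6 to 10 bp (388 pairs), 0.25 at 11 to 20 bp (1230 pairs), 0.14 at 21 to 50 bp (639 pairs) and 0.04 at 51 to 100 bp (311 pairs). Deviations from the treatment mean gave nearly the same, with 0.62 at 2 bp and 0.02 at 1 bp. In pairs in which neither CpG was a member the median r was lower at 2 bp (0.36) and higher at 1 bp (0.09). These correlations run over 18 libraries that both CpGs of a pair share, and they are given as descriptions.

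**Figure D2:**
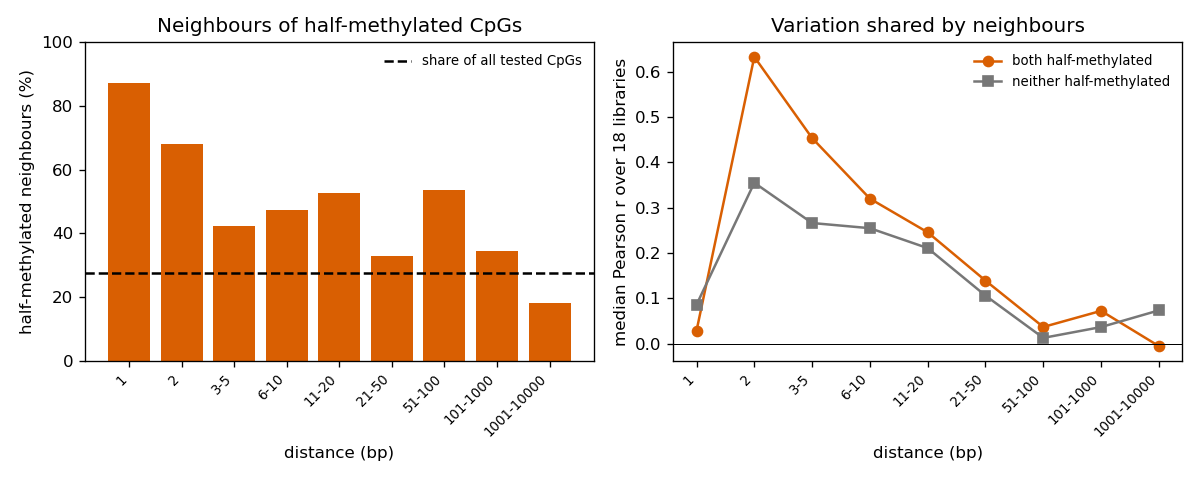
Left, share of adjacent tested CpGs (%) that are half-methylated, by distance from a half-methylated CpG (bp, in 9 classes), with a dashed line at the 27.7% of all tested CpGs. Right, median Pearson r over 18 libraries between adjacent CpGs, both half-methylated (orange circles) or neither (grey squares), which is 0.03 at 1 bp for pairs of members, 0.63 at 2 bp and close to 0 beyond 50 bp.

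Stretches with a half-methylated average were seldom made of half-methylated CpGs. At least 3 tested CpGs with gaps under 100 bp were joined to 2663 stretches, and 834 of them (31.3%) had an average M-value from -1 to 1. Of the 8307 CpGs in these, 4014 (48.3%) were members. In 27 stretches every tested CpG was a member, and 26 held none. In the median half-methylated stretch, which had 7 tested CpGs, the highest and the lowest mean M-value were 4.33 apart. More members (4466) lay in stretches whose average was outside the limits than inside.

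For some arrangements of CpGs, the order of levels recurred at other places in the genome. Strings of 5 successive tested CpGs with the same 4 gaps in bp, read in either direction, were counted over the genome. In some copies the gaps passed over tested positions 1 bp from a CpG of the string. The search used positions and no levels. In all, 116 strings occurred at least 10 times, and they held 32.8% of the members and 30.1% of the other tested CpGs. Levels by place are described for 4 of them, and whether these 4 are typical of the rest was not tested. Among the 4 examined in detail, the one with the most half-methylated places had gaps of 8, 20, 6 and 11 bp. It occurred 199 times on 27 chromosomes, 92 times in one direction and 107 times in the other. At 17 places in and around it, a tested CpG was found at the same distance in at least 30% of the copies, and 9 of these places had a median M-value within the limits.

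A median within the limits makes a high share of members likely but does not fix it. At these 9 places 74.3% to 98.1% of the copies held a member. The first CpG of the string (0 bp) was a member in 151 of 199 copies, with a median mean M-value of 0.73, and the second (8 bp) in 181 of 199, with -0.65. The next CpGs (28 and 34 bp) were members in only 30 of 199 and 7 of 198 copies, with medians of 1.23 and 1.67. The fifth (45 bp) was a member again in 193 of 199, with -0.31. Outside the string, 168 of 172 copies had a member 19 bp before it and 153 of 156 had one 170 bp after its start, whereas 0 of 89 had one 87 bp before it, where the median was 3.19. The difference between places was larger than that between copies. Place accounted for 80.0% of the variance of mean M-values in the string and its surroundings. This share was 75.9% and 85.6% for 2 of the other strings and 36.9% for the most frequent one, which are described after it. At the 9 places the mean M-value had an SD between copies of 0.33 to 0.73.

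**Figure D3:**
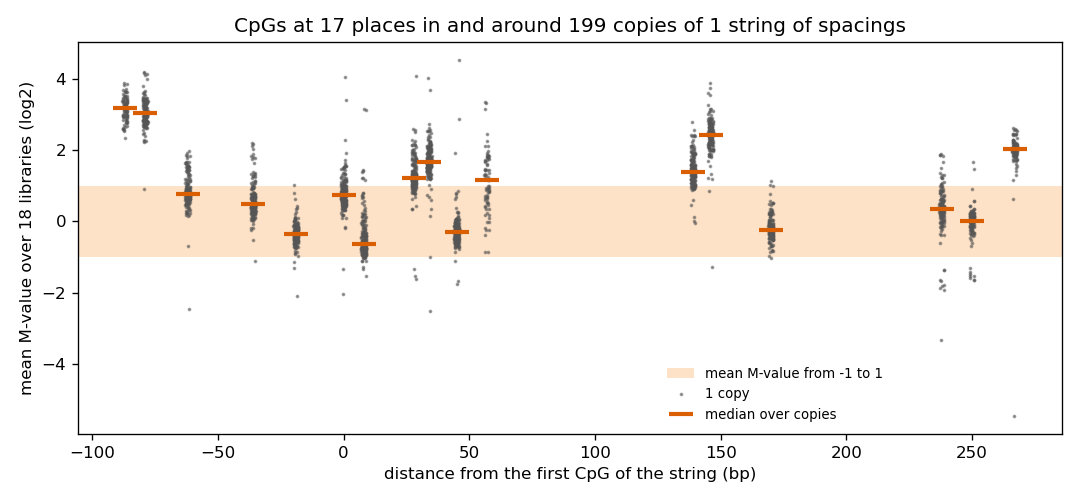
Mean M-value over 18 libraries (y axis, log2) of tested CpGs at 17 places in and around 199 copies of the string with gaps of 8, 20, 6 and 11 bp, against the distance from its first CpG (x axis, bp, points spread sideways for display). Dots are single copies, orange bars medians over copies, and the shaded band marks the limits from -1 to 1, within which 9 of the 17 medians lie.

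Copies shared their level but not their variation. Between copies of the string, the deviations of the same place over the 18 libraries had a median r of 0.02 over the 9 places. The mean level of the 9 places over all copies ran from 51.3% to 53.0% in the 18 libraries. By treatment it was 52.0% ± 0.67 (SD, n = 3) in Low Control, 52.5% ± 0.55 in Low ×2.5, 52.3% ± 0.34 in Low ×5, 52.5% ± 0.41 in High Control, 52.2% ± 0.39 in High ×2.5 and 51.9% ± 0.79 in High ×5. All 6 ranges overlapped.

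The other 3 strings differed in how much of them was half-methylated. Gaps of 4, 40, 25 and 11 bp occurred 150 times on 26 chromosomes, and 2 of 8 places had medians within the limits. One was the third CpG of the string (44 bp), a member in 132 of 150 copies, and the other lay 165 bp before it, a member in 103 of 113 copies. Gaps of 7, 38, 34 and 19 bp occurred 116 times on 12 chromosomes, and 4 of 16 places were half-methylated, namely those at 79, 80, 98 and 99 bp. At 79 and 98 bp there were members in 101 and 108 of 116 copies. Gaps of 4, 7, 17 and 29 bp were the most frequent of the 4, with 275 copies on 28 chromosomes, and none of 14 places had a median within the limits. Only 82 of the 2467 tested CpGs there (3.32%) were members. Over the 4 strings, the 15 half-methylated places had members in 74.3% to 98.1% of copies and the other 40 places in 0% to 48.7%. Places were sorted by the median of the same values that define a member. A place with a median outside the limits could not have members in most copies, so the second range was capped in advance. Together the 4 strings and their surroundings held 2188 members (25.1% of all members) and 23.2% of the other CpGs. Whether strings with equal spacing have the same sequence was not examined, as no genome of this build was used here.

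Treatment means of the members were close together. Averaged over the 8716 CpGs, the level was 51.7% ± 0.62 (SD, n = 3) in Low Control, 52.1% ± 0.46 in Low ×2.5, 52.0% ± 0.40 in Low ×5, 52.0% ± 0.39 in High Control, 52.0% ± 0.56 in High ×2.5 and 51.6% ± 0.53 in High ×5. The 18 libraries ran from 51.2% to 52.6%, and the ranges of the treatments overlapped. With libraries centred on their median they did not all overlap. The Low ×5 libraries then had 50.7% to 51.6%, below those of Low Control (51.7% to 54.8%), High ×5 (52.0% to 53.9%) and, narrowly, High ×2.5 (51.6% to 53.6%). The spread of the members around this mean varied more. Their SD in a library ran from 0.64 in 1 Low ×5 library to 0.75 in 1 Low Control library, and the 5 libraries in which it was largest were the 5 in which the SD over all tested CpGs was smallest. These were Low Control libraries 2 and 3, High ×2.5 library 3 and High ×5 libraries 1 and 2. The same libraries had low medians over all tested CpGs, down to 1.42 in Low Control library 3, where the highest library reached 1.74. The depth of the libraries is unknown, and its part in this was not tested.

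The members were then compared between treatments CpG by CpG. A CpG was called when its unadjusted p-value in limma was under 0.01, the threshold of the study, in a fit of all 31500 CpGs and 18 libraries. The study applied this threshold in edgeR, so that the counts here are not counts of its calls. On the M-value scale the members were called less often than tested CpGs as a whole in all 9 tests, and in none of them was a member past an adjusted p-value of 0.05. Split by the direction of the difference, the share of members was in some cases the higher one, as given below. In the test of any difference among the 6 treatments 71 members were called (0.81%), beside 1.44% of all tested CpGs. In the glucose by EM interaction 76 were called (0.87%), beside 2.08%. Such a threshold calls 1% of CpGs when nothing differs. Between 318 and 532 members (3.65% to 6.10%) had an unadjusted p-value under 0.05, beside 5.02% to 8.57% of all tested CpGs, and the members had the lower share in all 9 tests. The comparison with all tested CpGs depended on the scale. When the same fit was made on levels as fractions, 1.01% to 2.16% of members and 0.90% to 1.98% of all tested CpGs were called, and the share of members was the higher one in 5 of the 9 tests.

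EM at ×2.5 in Low glucose gave 97 called members (1.11%) beside 2% of all tested CpGs. Of these, 47 (0.54% of members) were higher in Low ×2.5 than in Low Control, beside 1.53% of all. The other 50 (0.57%) were lower, beside 0.47%. With libraries centred on their median the split became 23 and 105, and with quantile normalization 43 and 69. At ×5 in Low glucose, 89 members were called (1.02%) beside 2.4% of all. Of these, 52 (0.60% of members) were higher than in Low Control, beside 1.78%, and 37 (0.42%) lower, beside 0.619%. This split turned to 23 and 118 with centring and to 42 and 55 with quantile normalization. Which direction held more calls thus depended on the scaling. Calls among all tested CpGs under centring or quantile normalization are not given, here or below. The splits under these scalings are therefore not results about the members alone. Centring moved the median difference of all tested CpGs from 0.10 to -0.06 in this contrast and that of the members from 0.01 to -0.15.

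In High glucose, EM at ×2.5 gave 79 called members (0.91%) beside 1.02% of all tested CpGs. Of these, 39 (0.45% of members) were higher than in High Control, beside 0.343%, and 40 (0.46%) lower, beside 0.676%. With centring the split was 46 and 27. At ×5, 74 were called (0.85%) beside 1.37%. Of these, 29 (0.33% of members) were higher, beside 0.292%, and 45 (0.52%) lower, beside 1.08%. This split became 55 and 28 with centring and 42 and 36 with quantile normalization.

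Glucose alone gave the largest count among the 7 contrasts, although another contrast came first with centring (Low ×5 vs. Low Control, 141), without the replicates numbered 2 (Low ×2.5 vs. Low Control, 75) or 3 (High ×5 vs. High Control, 99), in fits of the 6 libraries alone (High ×2.5 vs. Low ×2.5, 59) and with limits of -0.5 and 0.5 (Low ×2.5 vs. Low Control, 55). Between High Control and Low Control 122 members were called (1.40%) beside 1.92% of all tested CpGs. Of these, 63 (0.72% of members) were higher in High Control, beside 1.38%, and 59 (0.68%) lower, beside 0.543%. With centring these were 28 and 105, and with quantile normalization 47 and 78. At ×2.5, 64 members differed between High and Low (0.73%) beside 1.01%. Of these, 35 (0.40% of members) were higher in High, beside 0.308%, and 29 (0.33%) lower, beside 0.698%. With centring the split was 55 and 16. At ×5, 50 differed (0.57%) beside 1.61%. Of these, 23 (0.26% of members) were higher in High, beside 0.305%, and 27 (0.31%) lower, beside 1.3%. The split was 64 and 6 with centring and 31 and 18 with quantile normalization. Several of these 7 contrasts share a treatment, so their calls are not separate counts. In all, 431 members (4.94%) were called in at least 1 contrast beside 7.91% of all tested CpGs, and 23 members in 3 or more.

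**Figure D4:**
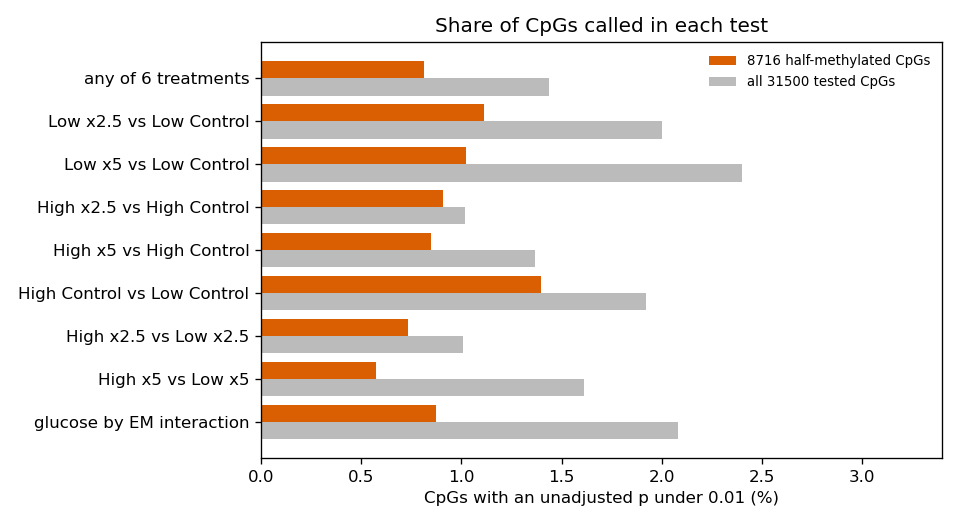
Share of CpGs (x axis, %) with an unadjusted p-value under 0.01 in limma in each of 9 tests, for the 8716 half-methylated CpGs (orange) and for all 31500 tested CpGs (grey). The orange bars lie between 0.57% and 1.40% and are shorter than the grey bars in all 9 tests, which rest on M-values (on levels as fractions the members had the higher share in 5 of the 9).

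Differences were small for most members and had to be large to be called. Over the 7 contrasts, the median absolute difference between 2 treatments was 2.98 to 3.39 percentage points. Among called members the median was 14.9 to 16.1 points and the largest difference 22.2 to 28.8 points.

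Neighbours of called members were compared with them for the sign of the difference. For tested CpGs 2 to 10 bp from a called member, between 60.0% and 86.4% had a difference of the same sign over the 7 contrasts, with a median of 73.8%. At 1 bp it was between 31.2% and 68.0%, with a median of 59.1%. The share with the same sign around members that were not called is not given. Pairs of members 2 to 10 bp apart already shared part of their deviations over libraries, with a median r of 0.39. Between 1 and 3 of 18 to 42 neighbours at 2 to 10 bp were themselves called (2.44% to 10%), beside 1.01% to 2.4% of all tested CpGs, and 0 to 1 of 16 to 39 at 1 bp. These counts are too small to be read further. The differences in M-value at 2 to 10 bp, counted in the direction of the called member, had a median of 0.18 to 0.38. Whether reads covered both CpGs is not known from the values.

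The member with the smallest p-value is described for each test, and none passed the adjustment. At chr8:56808412, assigned to TLE4, a transcriptional co-repressor, the Low Control libraries had 33.3%, 40.0% and 42.9% and the Low ×5 libraries 59.1%, 62.5% and 62.5%. The groups did not overlap, with a difference in M-value of 1.33 ± 0.25 (SE) and an adjusted p-value of 0.25, which ran from 0.22 to 0.75 over the alternatives. In High glucose the means were 55.6% in Control and 53.7% at ×5. The nearest tested CpG, 18 bp away, had a difference of 0.25 ± 0.45 in the same contrast.

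At chr8:88378660, assigned to SYK, a tyrosine kinase of immune receptor signalling, Low Control had 29.8%, 32.0% and 29.4% and Low ×2.5 had 54.8%, 53.5% and 49.4%. The difference was 1.34 ± 0.25 with an adjusted p-value of 0.38 (0.16 to 0.86 over the alternatives). The Low ×5 libraries lay between both, with 39.6%, 39.7% and 43.2%. A CpG 7 bp away differed by 0.62 ± 0.37.

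In High glucose, chr11:80484557, assigned to the retinol dehydrogenase gene RDH14, had 32.1%, 36.1% and 27.1% in Control and 51.3%, 57.7% and 52.0% at ×2.5. The difference was 1.32 ± 0.27 with an adjusted p-value of 0.69 (0.50 to 1.00). The 3 Low Control libraries of this CpG had 39.6%, 50% and 60.0%. At chr4:95745886, assigned to MKLN1 (muskelin, a subunit of a ubiquitin ligase), High Control had 72.7%, 66.7% and 66.0% and High ×5 had 44.0%, 45.8% and 52.2%. The difference of -1.28 ± 0.25 had an adjusted p-value of 0.35 (0.23 to 1.00). Here the nearest tested CpG, 17 bp away and not a member, had a difference of -0.93 ± 0.43.

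Between glucose levels, chr9:96973487, assigned to TAGAP, a GTPase-activating protein of T cells, had 50%, 50% and 58.5% in Low Control and 34.2%, 37.2% and 38.3% in High Control. The difference was -0.96 ± 0.19 with an adjusted p-value of 0.37 (0.10 to 0.83), and the tested position 1 bp away had 0.19 ± 0.48. At ×2.5, chr27:28723044, assigned to the ubiquitin ligase gene RNF122, had 58.1%, 62.7% and 61.8% in Low and 79.6%, 73.7% and 81.0% in High, a difference of 1.21 ± 0.28 with an adjusted p-value of 0.95 (0.70 to 1.00). At ×5, chr8:74624288, assigned to PPP2R2A, a regulatory subunit of protein phosphatase 2A, had 37.0%, 33.9% and 38.0% in Low and 51.9%, 60.0% and 60.0% in High. This difference of 1.24 ± 0.23 had an adjusted p-value of 0.25 (0.10 to 1.00), and the other 4 treatments had means between 35.5% and 41.3%.

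In the test of all 6 treatments, chr25:30307826, assigned to GALNT17, a transferase of mucin-type O-glycosylation, had the smallest p-value among members. Its Low Control libraries had 81.5%, 75% and 78.6%, and the means were 69.0% at ×2.5 and 60.5% at ×5, while in High glucose they were 62.0% in Control, 48.4% at ×2.5 and 74.1% at ×5. The adjusted p-value was 0.62 (0.29 to 0.97), and a CpG 7 bp away gave an unadjusted p-value of 0.95 in the same limma test. In the interaction test, chr6:89202911, assigned to ADAMTS3, a procollagen-processing protease, came first. In Low glucose its means were 39.5% in Control, 33.4% at ×2.5 and 29.5% at ×5, and in High glucose 26.7%, 29.5% and 45.3%. The adjusted p-value of this interaction was 0.34 (0.24 to 0.87).

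**Figure D5:**
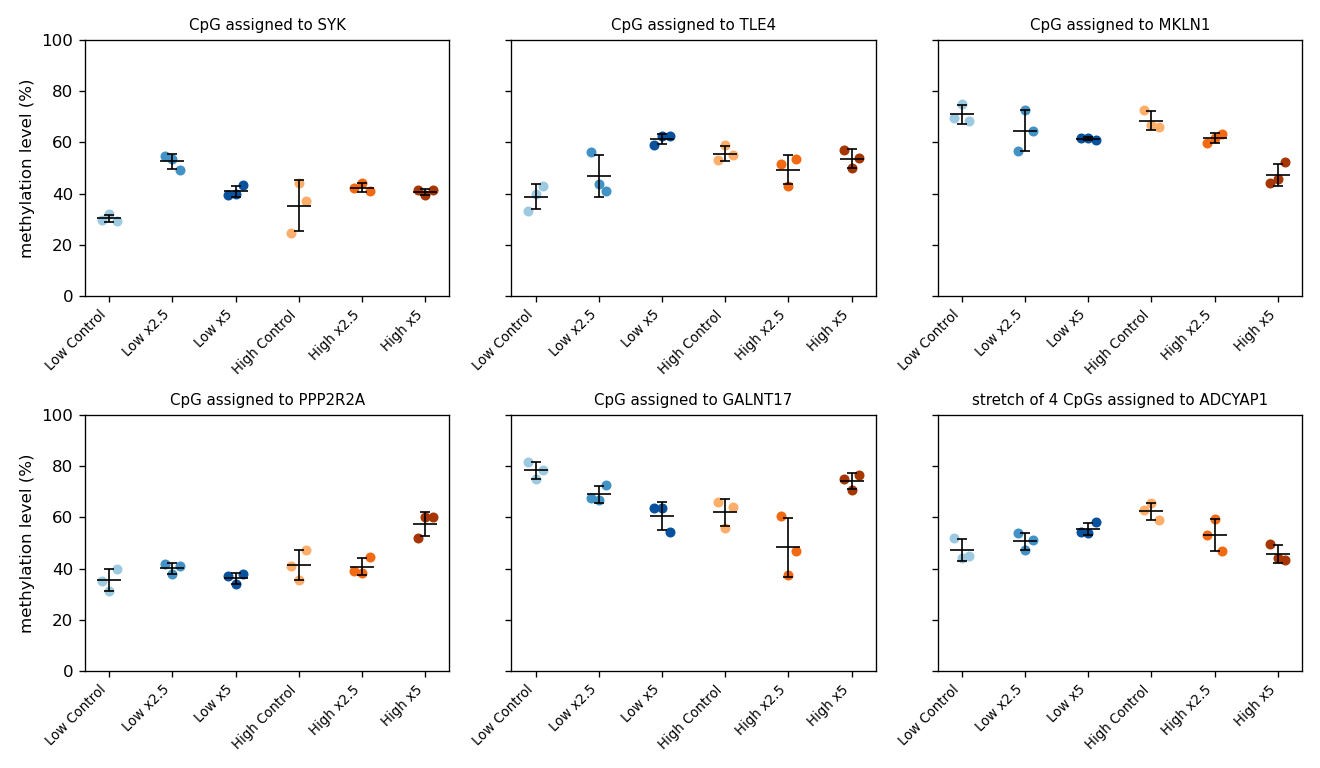
Methylation level (y axis, %) by treatment (x axis) at 5 half-methylated CpGs and at 1 stretch, the average of 4 CpGs, named by the gene assigned to them from the study's tables. Dots are the 3 libraries of a treatment and bars the mean ± SD, and the SYK, TLE4, MKLN1 and PPP2R2A CpGs show 2 treatments without overlap in the contrast for which they were chosen.

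Averaging over neighbours gave 1 stretch past the adjustment, in 2 of the tests. Of the 834 half-methylated stretches, 6 (0.72%) were called in the test of the 6 treatments, beside 1.54% of all 2663 stretches. In Low glucose 8 were called at ×2.5 (0.96%) beside 2.78%, and 17 at ×5 (2.04%) beside 4.09%. In High glucose 10 were called at ×2.5 (1.2%) beside 0.939%, and 11 at ×5 (1.32%) beside 1.99%. Between glucose levels 11 were called at the Control level (1.32%) beside 2.89%, 5 at ×2.5 (0.60%) beside 0.751%, and 5 at ×5 (0.60%) beside 2.44%. In the glucose by EM interaction 6 were called (0.72%) beside 3.64%.

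The stretch past the adjustment was chr24:36390820-36390871, with 4 tested CpGs in 52 bp assigned to ADCYAP1, which encodes the neuropeptide PACAP. Its average level was 62.8%, 65.6% and 58.9% in High Control and 49.7%, 44.0% and 43.4% in High ×5. The groups did not overlap. The difference of -1.22 ± 0.20 (SE) on the log2 scale had an adjusted p-value of 0.037 over all stretches in limma. Without the replicates numbered 1, 2 or 3 the adjusted p-value was 0.23, 0.99 and 0.21, and the difference stayed between -1.27 and -1.14. In the interaction the same stretch had an adjusted p-value of 0.029 (0.039 to 0.63 over the alternatives). In Low glucose the mean was 47.1% ± 4.28 (SD, n = 3) in Control, 50.7% ± 3.33 at ×2.5 and 55.5% ± 2.43 at ×5, and the difference of 0.63 ± 0.20 between ×5 and Control had an adjusted p-value of 0.22. Between High Control and Low Control the difference was 1.09 ± 0.20 with an adjusted p-value of 0.069 (0.063 to 0.67 over the alternatives). The stretch was a mixture of levels. Of its 4 CpGs, chr24:36390820 had a mean M-value of 3.07 and chr24:36390859 one of -1.27, and the members chr24:36390828 and chr24:36390871 had -0.03 and -0.54. All 4 had a lower mean in High ×5 than in High Control, with differences of -0.83, -1.36, -1.81 and -0.90 on the log2 scale in this order, and the adjusted p-values of the single CpGs were 0.49 to 0.83. At chr24:36390828, where the difference was the largest of the 4, the High ×5 libraries had 57.1%, 20.0% and 39.5%.

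Of the half-methylated stretches with the smallest p-value in the other contrasts, chr29:19399061-19399158 near PAK1 held 4 members among 5 CpGs. Its level was 38.0%, 32.0% and 40.0% in Low Control and 50.3%, 49.8% and 58.4% in Low ×2.5, a difference of 1.03 ± 0.23 with an adjusted p-value of 0.24 (0.091 to 0.85). At chr3:82874286-82874325 near ALG6, with 1 member among 3 CpGs, Low Control had 48.8%, 47.6% and 43.1% and Low ×5 had 55.7%, 56.8% and 54.3%. This difference of 0.85 ± 0.20 had an adjusted p-value of 0.11 (0.024 to 0.73). The smallest adjusted p-values for ×2.5 in High glucose and for High ×2.5 against Low ×2.5 were 0.98, at chr4:29003803-29003885, and 0.94, at chr4:98739205-98739480 near LRGUK.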

How the data were processed

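Per the labels and the study's methods, methylation was called by the authors with Bismark 0.22.3 from trimmed reads aligned to bosTau8. CpGs above a coverage percentile or with few reads were removed by the authors. They deposited log2 values, 1 M-value per CpG and library, with an offset that is not given in the sources used here. Depth per CpG is unknown, so that no counting error could be computed, and values from few reads lie closer to 0.

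All 31500 CpGs were fitted in R 4.3.3 with limma 3.58.1 (4.11 prior degrees of freedom from eBayes), with 1 mean per treatment, two-sided, in 9 tests, and adjusted by Benjamini-Hochberg over all CpGs. The adjusted p-values of stretches run over 2663 stretches. The script was tested on simulated data. Levels in percent were computed from M-values, with the offset still in them. Correlations are Pearson's. Tables were handled with Python 3.11.15 and pandas 2.3.3.

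The members, lists and tests were chosen with earlier results of these data known, and the spacing strings and the interaction test of stretches were added after the data had been seen. Single CpGs were named for the smallest p-value in each test, the smallest and largest SD, and their place beside the limits. Stretches were named for the smallest p-value, and runs and regions for the number or share of members.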

Additional observations from a re-analysis of the deposited data

Results flagged for a closer look

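A few places were noted because, from Control to a supplemented medium, all 3 libraries moved one way in Low glucose and all 3 the other way in High glucose. All were among those named for a small p-value, so that the numbers below are descriptions. At chr25:30307826 (GALNT17) the change to ×5 was -17.8 percentage points in Low and 12.1 in High, a difference of 29.9 points. At chr6:89202911 (ADAMTS3) it was -9.97 and 18.6, a difference of 28.5 points. At chr11:80484557 (RDH14) it was -13.5 and 12, a difference of 25.5 points, although the Low Control libraries ranged from 39.6% to 60.0%. At chr9:96973487 (TAGAP) the change to ×2.5 was -7.85 and 7.01, a difference of 14.9 points. In limma's glucose by EM interaction the adjusted p-values of these CpGs were 0.34, 0.34, 0.40 and 0.49. For the stretch chr24:36390820-36390871 (ADCYAP1) the change to ×5 was 8.42 and -16.7, a difference of -25.1 points, with an adjusted p-value of 0.029 for the interaction over all stretches.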

How the results depend on the processing

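Under robust and trended eBayes, quantile normalization and the narrower or level-based definitions, the share of members called stayed within 1.5 times its reported value in all 9 tests. Over CpGs, deviations of same-numbered libraries correlated between -0.11 and 0.12, which does not meet the mark for pairing (over 0.1 in every pair), and the labels give no shared batch. The mean level of the members was nonetheless highest in replicate 1 in 5 of 6 treatments, and that of the CFAP126 run and of the second run lowest in replicate 3 in 5 of 6. With the replicate block the share ran from 0.59% to 1.34% over the 9 tests (69 members, 0.79%, in the test of 6 treatments), and the ADCYAP1 stretch had an adjusted p-value of 0.041. With an adjusted p-value under 0.05 as the threshold it was 0% in all 9.

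With levels as fractions it was 1.81% in the test of 6 treatments, 1.77% for Low ×2.5 vs. Low Control, 1.65% for Low ×5 vs. Low Control, 1.37% for High ×5 vs. High Control, 2.16% for High Control vs. Low Control, 1.3% for High ×2.5 vs. Low ×2.5, 1.01% for High ×5 vs. Low ×5 and 1.55% for the interaction. In fits of the 6 libraries of a contrast it was 0.45% for Low ×2.5 vs. Low Control, 0.61% for Low ×5 vs. Low Control, 0.48% for High ×2.5 vs. High Control and 0.45% for High Control vs. Low Control, with fewer samples in each fit. Centring the libraries gave 1.62% for Low ×5 vs. Low Control and 1.56% of half-methylated stretches in the test of 6 treatments. Apart from levels as fractions, shares of all tested CpGs are not given for other fits, such as centring, the replicate block or fewer libraries. Whether members were called less often than all tested CpGs in those fits was not tested.

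Leaving out one replicate number, or Low Control library 3 (an alternative added after seeing the data), removes samples from each fit. The shares then ran from 0.31% to 0.72% in the test of 6 treatments, 0.68% to 1.16% for Low ×2.5 vs. Low Control, 0.47% to 1.33% for Low ×5 vs. Low Control, 0.61% to 0.92% for High ×2.5 vs. High Control, 0.53% to 1.14% for High ×5 vs. High Control, 0.70% to 1.45% for High Control vs. Low Control, 0.49% to 0.53% for High ×2.5 vs. Low ×2.5, 0.34% to 0.75% for High ×5 vs. Low ×5, 0.50% to 1.03% for the interaction and 0.36% to 1.56% for stretches. The lowest values of 5 tests came without the replicates numbered 2.

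The number of members was 8672 to 8856 without one replicate number, 4403 with limits of -0.5 and 0.5, and 8890 for a mean level from 33.3% to 66.7%. Among adjacent CpGs under 100 bp away, 54.4% were members, 54.0% to 54.3% without one replicate number and 54.2% with centring. The median r of pairs of members was 0.03 at 1 bp (0.01 to 0.03 without one replicate number, 0.085 with centring) and 0.39 at 2 to 10 bp (0.38 to 0.39, and 0.45 with centring). Centring moved the mean level of members to 53.5% in Low Control, 51.6% in Low ×2.5, 51.2% in Low ×5, 52.6% in High ×2.5 and 53.0% in High ×5. The cause of these changes was not tested. Depth is unknown, so that a difference missed for want of reads cannot be told apart from one that is absent.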
